A study of Mus musculus with 6 samples.

Results

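Laminins are the cross-shaped glycoproteins that form the self-assembling sheet of every basement membrane. Each is a trimer of 1 alpha, 1 beta and 1 gamma chain held together by a coiled coil, and the alpha chain carries the C-terminal globular domains to which integrins and dystroglycan on the cell surface bind. In skin and in tumors, laminins lie under epithelia, around blood vessels, around muscle fibers and Schwann cells, and are made by the cells that rest on them as well as by stromal cells. The chains described here are the alpha chains Lama1, Lama2, Lama3, Lama4 and Lama5, the beta chains Lamb1, Lamb2 and Lamb3, and the gamma chain Lamc1. They were taken from the deposited gene table by symbol, and all 9 were found among its 45777 listed genes. The gamma chain Lamc3 is not among the chosen 9 and is given beside them.

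The tumors were grafts of B16F10, a mouse melanoma cell line, that had grown in the hind footpad (3 tumors) or in the flank skin (3 tumors), with 1 RNA library per tumor and no treatment named in the labels. Per the labels the hosts of all 6 tumors were Foxn1-/- mice, which lack a thymus and normal hair, at an age of 8 weeks. The paper describes B16F10 grafts in Foxn1-null mice as well as in C57BL/6J mice and does not name which of them carried the sequenced tumors. The labels speak of whole tumors that were removed and the paper of isolated tumor cells, with no separation step named, so the RNA may hold host cells, and in such bulk RNA fewer cells of a type and less RNA per cell cannot be told apart. In its grafts the paper placed cells at both sites of a mouse at once, so a footpad and a flank skin tumor may share a host, but no source used here ties the sequenced tumors to single mice, and the p-values measure the spread between these tumors only.

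Between 46529649 and 66364366 reads per tumor were counted on genes, and replicate tumors at either site were further apart than counting noise alone allows (chi-square of 46.5 to 403 per gene). Levels are given as CPM, the read count relative to library size after TMM scaling, for comparing tumors, and as FPKM, the authors' value per kilobase of transcript, for comparing chains with each other. A count of 3 reads, taken as the limit of detection, equalled 0.0438 to 0.0673 CPM. The melanocyte lineage markers, 8 genes from Mlana to Gpnmb, were present in all 6 tumors and summed to 13620 to 23650 CPM in footpad tumors and 17690 to 29290 CPM in flank skin tumors. None of the 8 was called in edgeR or in DESeq2. In edgeR 1 of them, Tyr, was lower in footpad tumors at an unadjusted p under 0.05, where 10.5% of all genes tested were. Tyr was the lowest in footpad replicate 1 at 360.3 CPM and the highest in flank replicate 1 at 2191 CPM. Markers of epidermis and of skeletal muscle stood out in footpad replicate 2, and their values are given beside the laminin chains of epidermis.

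Of the 9 laminin chains, Lamb1 was upregulated in footpad tumors and none was downregulated. In this comparison a gene was called when edgeR's quasi-likelihood test gave a Benjamini-Hochberg adjusted p under 0.05 over all 17210 genes tested together with a fold change of 2 or more. All 9 chains were tested, and 1 was called higher and 0 lower, where 2.89% of all genes tested were called higher and 0.872% lower. At an unadjusted p under 0.05 edgeR had 5 chains higher and 0 lower, where 14.8% of all genes tested were higher and 10.5% lower. DESeq2 called 2 chains higher and 0 lower, adding Lama2, where it called 6.15% of the 19518 genes to which it gave an adjusted p higher and 1.88% lower. For 5 chains (Lama2, Lama3, Lamb1, Lamb3 and Lamc1) all footpad tumors lay above all flank skin tumors, an order seen in 17.5% of genes tested, and for 0 chains they lay below, which 14.9% of genes showed. The median log2 fold change of the 9 chains was 0.64, and that of all genes tested was -0.0042.

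**Figure D1:**
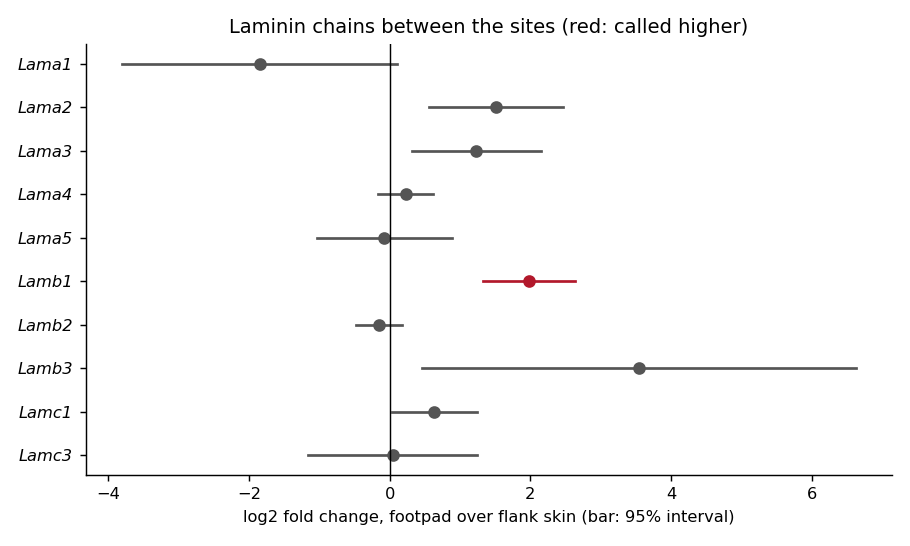
The plot gives the log2 fold change of the 9 laminin chains and Lamc3, footpad over flank skin, as a point with its 95% interval from edgeR as a bar (3 tumors per site), with called genes in red. Lamb1 is the called gene among those drawn, while the intervals of Lama1, Lama4, Lama5, Lamb2 and Lamc3 include 0.

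Lamb1, the beta chain of most widely distributed laminins, lies on chromosome 12 of GRCm38 from 31265146 to 31329644. Its level was 111, 76.2 and 117 CPM in the footpad tumors and 16.6, 32.7 and 27.9 CPM in the flank skin tumors, with values given throughout in the order of replicates 1, 2 and 3. The lowest footpad tumor was above the highest flank skin tumor. The means were 101 ± 22.1 CPM and 25.7 ± 8.29 CPM (SD, n = 3 each), a 3.94-fold difference with a 95% interval from 2.50 to 6.21 (log2 fold change 1.98 with a standard error of 0.28, adjusted p = 0.0174 by edgeR and 1.53e-10 by DESeq2). With single tumors left out, its log2 fold change stayed between 1.74 and 2.18. The adjusted p from edgeR passed in 3 of those 6 fits and was 0.0775 without footpad replicate 1, 0.0879 without footpad replicate 3 and 0.0772 without flank replicate 3. Over all genes the fits without these tumors called 26, 0 and 36 higher, in place of 497. With the replicate number as a block the adjusted p of Lamb1 was 0.0778, with a log2 fold change of 2.01, and 0 of all genes were called.

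Lamb2, the beta chain known from neuromuscular junctions, kidney glomeruli and vessel walls (chromosome 9, 108479847 to 108490530), was at 79.6, 75.8 and 74.8 CPM in footpad tumors and at 98.4, 81.6 and 75.4 CPM in flank skin tumors. The groups overlapped, and the log2 fold change was -0.15 with a 95% interval from -0.47 to 0.17 (adjusted p = 0.533 from edgeR). The upper bound of this interval lies below the lower bound for Lamb1, 1.32, on the same log2 scale. Both genes were chosen with results known, and no test compared them with each other.

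The sequences before the starts of these 2 beta chain genes are shown because they are the pair of widely distributed beta chains of which 1 was called and the other was not. They are from RefSeq on GRCm38, both on the plus strand, and each line prints the first 191 of the 250 bases before the annotated start, Lamb1 from chr12:31265043-31265233 and Lamb2 from chr9:108479612-108479802, with the letters of GC boxes in capitals. RefSeq's extent of either gene begins inside its 250-base window, at an upstream start, which for Lamb1 lies within the printed bases.
Lamb1: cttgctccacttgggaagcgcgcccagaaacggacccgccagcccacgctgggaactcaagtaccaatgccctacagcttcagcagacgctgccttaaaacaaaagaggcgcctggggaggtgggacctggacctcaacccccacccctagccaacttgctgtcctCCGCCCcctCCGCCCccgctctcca
Lamb2: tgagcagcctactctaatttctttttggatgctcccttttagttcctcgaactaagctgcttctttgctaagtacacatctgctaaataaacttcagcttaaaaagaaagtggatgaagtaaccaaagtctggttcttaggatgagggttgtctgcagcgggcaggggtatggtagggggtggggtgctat

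In the 250 bases, the letters GGGCGG of a GC box, searched on both strands, occurred 2 times for Lamb1 and 0 times for Lamb2, and 32.9% of 27025 genes with such a window held them. The Lamb1 matches, 84 and 75 bases before the start used here, lie after the upstream start at 31265146 and so inside RefSeq's extent of the gene. The letters GGAATG of the TEAD motif, which YAP's DNA-binding partners read, occurred in neither window on either strand (12.6% of genes held them), and neither did the AP-1 letters TGANTCA (6.87% of genes). No match of a motif overlapped a match of another in these windows. The Lamb1 window had a GC content of 62.0% with 14 CpG, and the Lamb2 window one of 43.6% with 3 CpG, beside a median of 52.0% over all genes. Windows of 5 of the 9 chains were searched (Lama2, Lama5, Lamb1, Lamb2 and Lamb3), and 1 of the 2 starts given for Lamb3 had a TEAD match. The window of Lama5, which was not called, held more GC boxes than that of Lamb1 (4), with a GC content of 72.4% and 19 CpG. These matches are a description of letters in a window.

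Per length, Lamb1 was above Lamb2 in 2 of the 3 footpad tumors, near it in footpad replicate 2 and below it in every flank skin tumor. Lamb1 was at 15.8, 12.4 and 18.5 FPKM in footpad tumors and at 2.34, 5.48 and 4.29 FPKM in flank skin tumors, and Lamb2 was at 11.6, 12.6 and 12.1 FPKM and at 14.3, 14.1 and 11.9 FPKM. Lamb1 thus made up 57.6%, 49.0% and 60.4% of the summed FPKM of the 3 beta chains in footpad tumors and 14.1%, 28.1% and 26.5% in flank skin tumors (55.6% ± 5.96 and 22.9% ± 7.68, SD, n = 3). The Lamb1 to Lamb2 ratio was between 0.979 and 1.53 in footpad tumors and between 0.164 and 0.390 in flank skin tumors. Summed over the beta chains, the level was 25.3 to 30.6 FPKM in footpad and 16.2 to 19.5 FPKM in flank skin tumors, and the groups overlapped in neither the Lamb1 share, the ratio nor this sum. No p is given for these quantities because the chains were chosen with results known.

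**Figure D2:**
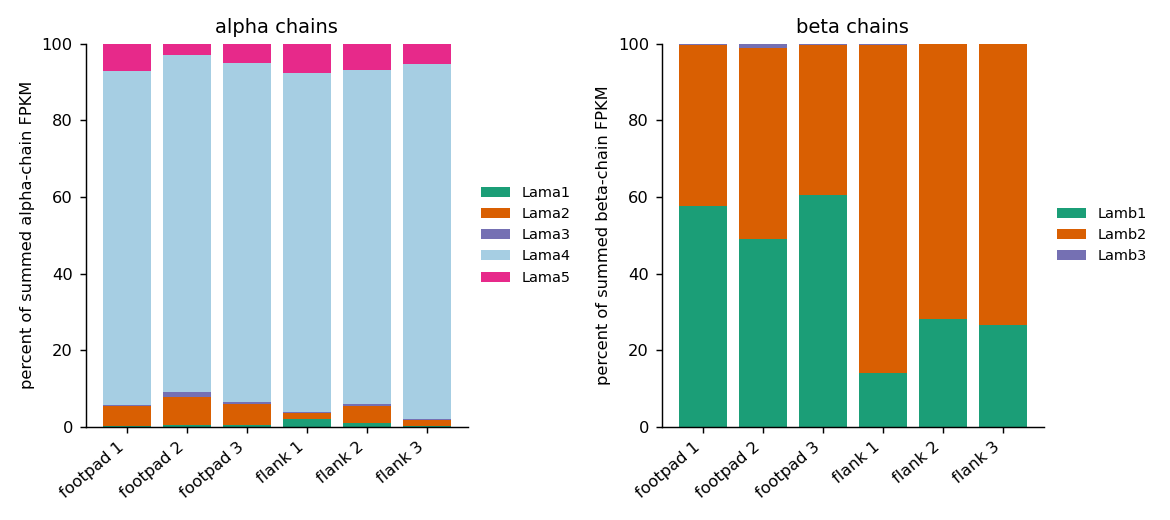
Bars give the percent of summed FPKM held by each alpha chain (left) and each beta chain (right) in each of the 6 tumors. Lama4 holds 87.4% to 92.7% of the alpha chains in every tumor, whereas Lamb1 holds 49.0% to 60.4% of the beta chains in footpad tumors and 14.1% to 28.1% in flank skin tumors.

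Lamc1, the gamma chain shared by most laminins (chromosome 1, 153218922 to 153332786), was at 276, 284 and 308 CPM in footpad tumors and at 114, 212 and 234 CPM in flank skin tumors. All footpad tumors were above all flank skin tumors, and flank replicate 1 was the lowest. The means were 289.5 ± 16.7 and 186 ± 63.8 CPM (SD, n = 3 each), and the difference did not pass (log2 fold change 0.64, 95% interval from 0.03 to 1.24, adjusted p = 0.179 from edgeR). Without flank replicate 1 the log2 fold change was 0.37. Its level was 12.2 to 36.8 FPKM, so that the summed beta chains were at 0.924, 0.723 and 0.832 of Lamc1 in footpad tumors and at 1.36, 0.725 and 0.595 in flank skin tumors, and the summed alpha chains at 0.968, 0.687 and 0.855 and at 2.02, 0.929 and 0.779. Flank replicate 1 had the highest of both ratios, and the groups overlapped. The genes whose centered log2 CPM was most like that of Lamc1 over the 6 tumors were Itga6, with a root-mean-square difference of 0.0766, Cox18 (0.0821), Nol6 (0.0916), Ccnyl1 (0.0939) and Dock5 (0.101). Of the other chains the nearest to Lamc1 was Lama4, at 0.498 and rank 4934.

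Among the alpha chains, Lama4, known from endothelial and from mesenchymal cells among others, was at the highest level per length in all 6 tumors. Which cells of these tumors made it was not tested. It lies on chromosome 10 from 38965515 to 39110188 and was at 25.1, 21.2 and 27.9 FPKM in footpad tumors and at 21.9, 21.9 and 19.7 FPKM in flank skin tumors. Its share of the summed FPKM of the 5 alpha chains was 88.0% ± 0.614 in footpad and 89.6% ± 2.73 in flank skin tumors (SD, n = 3), and the groups overlapped. In CPM it was at 185, 136 and 185 in footpad tumors and at 162, 137 and 134 in flank skin tumors, with a log2 fold change of 0.23 and a 95% interval from -0.16 to 0.62 (adjusted p = 0.425 from edgeR). Footpad replicate 2 lay within the flank skin range and the other footpad tumors above it. The genes most like Lama4 were Lnpep (root-mean-square difference 0.0468), Ankrd12 (0.0492), Arntl (0.0605), Arhgap10 (0.0681) and Dnah8 (0.0682), and the nearest laminin chain was Lamb2 at rank 1993.

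**Figure D3:**
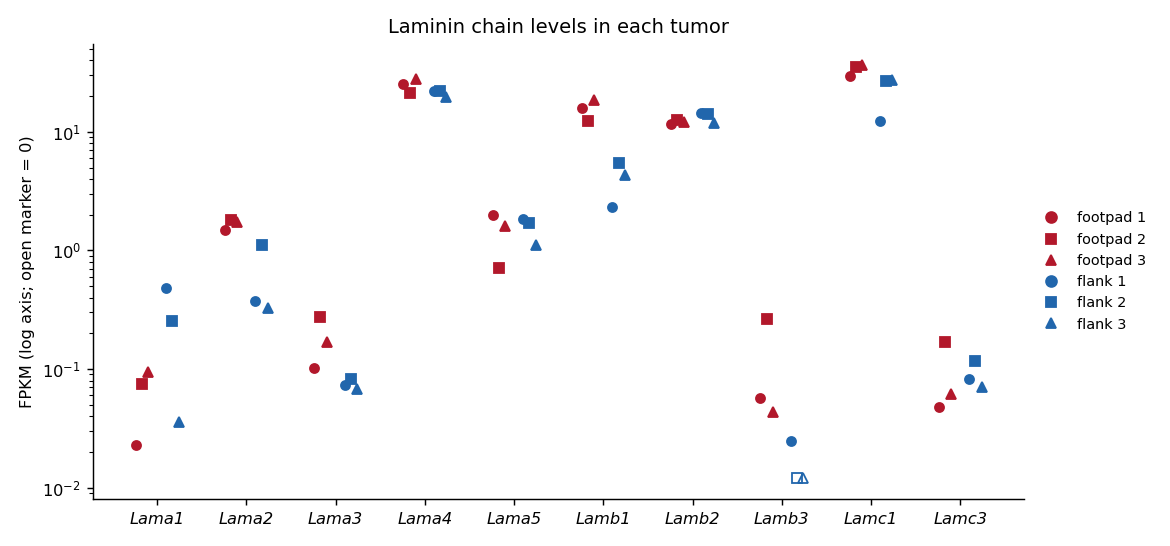
Points give the FPKM of the 9 laminin chains and Lamc3 in each of the 6 tumors on a log axis, footpad in red and flank skin in blue, with an open marker for a value of 0. Lamb1 separates the sites, with 12.4 to 18.5 FPKM in footpad tumors against 2.34 to 5.48 FPKM in flank skin tumors, while Lama4, Lama5 and Lamb2 overlap.

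Lama2, the alpha chain of muscle and peripheral nerve whose loss causes muscular dystrophy (chromosome 10, 26981285 to 27617191), was at 17.9, 18.7 and 18.4 CPM in footpad tumors and at 4.52, 11.2 and 3.63 CPM in flank skin tumors. The footpad tumors differed little among themselves and all lay above the flank skin tumors, of which replicate 2 was the highest. The means of 18.3 ± 0.411 and 6.44 ± 4.12 CPM (SD, n = 3 each) differed by a log2 fold change of 1.51 (95% interval from 0.56 to 2.46), which did not pass in edgeR (adjusted p = 0.0743) and passed in DESeq2 (0.00122). Without flank replicate 2 the log2 fold change was 2.16 and the adjusted p from edgeR was 0.012, and over the other fits without a tumor the adjusted p reached 0.190. Lama2 made up 5.20% to 7.49% of the alpha chains by FPKM in footpad tumors and 1.52% to 4.42% in flank skin tumors.

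Lama5, the main alpha chain under mature epithelia and endothelia (chromosome 2, 180176373 to 180225904), was at 28.2, 8.69 and 20.0 CPM in footpad tumors and at 25.8, 20.0 and 14.1 CPM in flank skin tumors. Footpad replicates 2 and 1 held the lowest and the highest value of all 6 tumors, and the log2 fold change of -0.07 had a 95% interval from -1.04 to 0.89 (adjusted p = 0.928 from edgeR). Leaving out footpad replicate 2 gave 0.27, and leaving out flank replicate 1 gave 0.15. The Lama4 to Lama5 ratio in FPKM was 12.5, 29.6 and 17.5 in footpad tumors and 11.8, 12.9 and 17.6 in flank skin tumors.

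Lama1, the alpha chain of the early embryo (chromosome 17, 67697127 to 67822645), was low and uneven, at 0.292, 0.802 and 1.00 CPM in footpad tumors and at 4.69, 2.50 and 0.399 CPM in flank skin tumors. The groups overlapped because flank replicate 3 was within the footpad range. It had the lowest log2 fold change of the chains, -1.85, with a 95% interval from -3.80 to 0.10 (adjusted p = 0.217 from edgeR and 0.0780 from DESeq2). Without flank replicate 1 this was -1.05. In FPKM it reached 0.484 in flank replicate 1, against 21.9 FPKM of Lama4 in the same tumor.

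In order of mean FPKM over footpad tumors, the chains were Lamc1, Lama4, Lamb1, Lamb2, Lama2, Lama5, Lama3, Lamb3 and Lama1. The ranges of neighbors in this order overlapped for Lamb1 and Lamb2, for Lama2 and Lama5, for Lama3 and Lamb3, and for Lamb3 and Lama1. Lamc1 and Lama4 did not overlap in footpad tumors, at 29.7 to 36.8 and 21.2 to 27.9 FPKM, and did so in flank skin tumors, where Lamc1 was at 12.2 to 27.2 FPKM.

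Lama3 and Lamb3 are chains of the laminin that anchors basal keratinocytes to the dermis, and both were low in every tumor. Lama3 (chromosome 18, 12333417 to 12583013) was at 1.37, 3.18 and 1.96 CPM in footpad tumors and at 0.983, 0.941 and 0.847 CPM in flank skin tumors, with a log2 fold change of 1.23 (95% interval from 0.32 to 2.15, adjusted p = 0.108 from edgeR). Lamb3 (chromosome 1, 193294353 to 193343878) had 13, 78 and 10 reads in footpad tumors and 8, 0 and 0 reads in flank skin tumors, or 0.292, 1.14 and 0.204 CPM against 0.138 CPM in flank replicate 1. The 0 reads allow up to 0.0513 and 0.0479 CPM in flank replicates 2 and 3, by counting error alone. Footpad replicate 2 was the highest tumor for both chains. The fitted log2 fold change of Lamb3, 3.54, had a 95% interval from 0.46 to 6.62 (adjusted p = 0.152 from edgeR), depends on the prior count where reads were 0, and ran from 2.39 without footpad replicate 2 to 7.97 without flank replicate 1, the flank skin tumor that held reads. That of Lama3 was 0.85 without footpad replicate 2.

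Lamc3, the gamma chain known from retina and brain, did not separate the sites (log2 fold change 0.04 with a standard error of 0.52, adjusted p = 0.971 by edgeR), and its sign turned to -0.66 without footpad replicate 2.

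**Figure D4:**
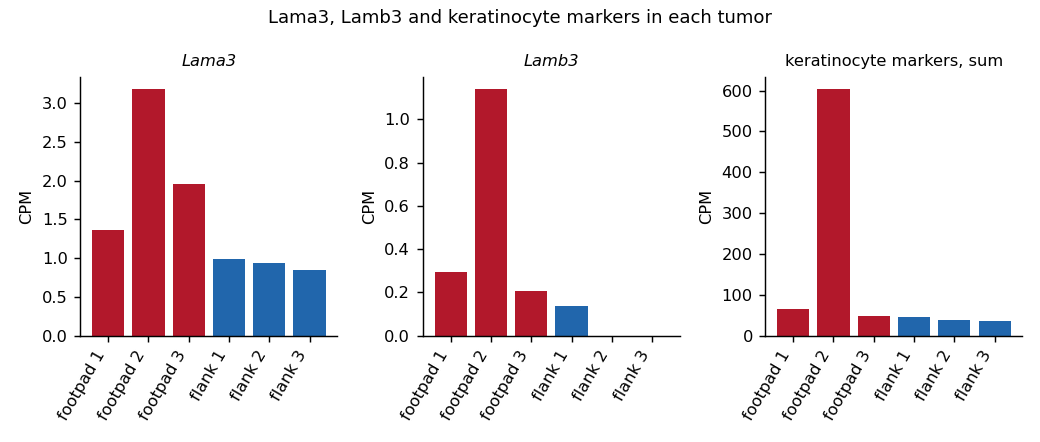
Bars give the CPM of Lama3, of Lamb3 and of the summed keratinocyte markers in each tumor, footpad in red and flank skin in blue, on linear axes that start at 0. Footpad replicate 2 is the highest tumor for Lama3 (3.18 CPM), Lamb3 (1.14 CPM) and the markers (602.7 CPM).

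Keratinocyte markers (12 genes, 10 of them tested) summed to 65.5, 602.7 and 48.3 CPM in footpad tumors and to 44.2, 39.0 and 35.8 CPM in flank skin tumors. The highest value of 11 of the 12 was in footpad replicate 2, none was at 0 in all tumors, and the defining genes Krt5 and Krt14 were at 25.2 and 49.1 CPM in it and at most 3.08 and 3.64 CPM elsewhere. None was called in edgeR, and 8 had an unadjusted p under 0.05 with the higher level in footpad tumors, where 14.8% of all genes tested did. DESeq2 called 4 of the 8 to which it gave an adjusted p, where it called 6.15% of all such genes higher. Skeletal muscle markers (12 genes) were likewise highest in footpad replicate 2 for 12 of 12, with summed levels of 163.9, 1308 and 66.5 CPM in footpad tumors and 33.8, 239.6 and 43.4 CPM in flank skin tumors, and 0 called in edgeR and 0 at an unadjusted p under 0.05. DESeq2 gave an adjusted p to 5 of them and called 0 of those. Their part in the levels of Lama3, Lamb3, Lama2 and Lamb1 was not tested, and leaving out a tumor does not test it. In the fit without footpad replicate 2, Lamb1 was called (adjusted p = 0.0194 from edgeR). Lama2 was not called in it, with a log2 fold change of 1.49 (adjusted p = 0.103 from edgeR). That fit keeps footpad replicate 1, with muscle markers at 163.9 CPM.

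Markers of fibroblasts, and fewer of vessel cells, were also higher in footpad tumors. Of 12 fibroblast markers 9 were called higher in footpad tumors, among them Col1a2, at 696 ± 135 against 52.0 ± 46.2 CPM (SD, n = 3), and Dcn, at 43.2 ± 10.1 against 3.67 ± 3.77 CPM. All 12 were above in every footpad tumor, with summed levels of 2251, 2490 and 3345 CPM in footpad tumors and 73.6, 378.5 and 96.1 CPM in flank skin tumors and a median log2 fold change of 3.59. Of all genes tested, 2.89% were called higher by edgeR and 17.5% lay above in every footpad tumor. At an unadjusted p under 0.05, 14.8% were higher. Flank replicate 2 was the highest flank skin tumor for the fibroblast markers, for Lamb1 and for Lama2. It was also the highest of them for skeletal muscle (239.6 CPM), endothelial (238.9 CPM) and Schwann cell markers (279.7 CPM). For keratinocyte, mural cell and melanocyte lineage markers it was not. Endothelial markers summed to 352.7 to 406.1 CPM in footpad tumors and to at most 238.9 CPM in flank skin tumors, with 5 of 12 called higher and a median of 1.17. Of these 12, 10 lay above in every footpad tumor and 10 were higher at an unadjusted p under 0.05 in edgeR. DESeq2 called 7 of them higher, where it called 6.15% of genes with an adjusted p. Mural cell markers (9 of 10 tested) summed to 164.5 to 270.9 and 82.0 to 146.6 CPM, with 2 called higher. Schwann cell markers (7 of 8 tested) summed to 237.3 to 249.6 and 192.3 to 279.7 CPM, with 0 called in edgeR or DESeq2 and 1 at an unadjusted p under 0.05. No marker of these lists was at 0 in all tumors, and their part in the laminin levels was not tested.

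The partners of laminin in the basement membrane included more genes upregulated in footpad tumors. Of 19 listed genes, 17 were tested, and edgeR called 7 higher and 1 lower, with a median log2 fold change of 1.02, while DESeq2 called 9 higher and 1 lower. Over all genes edgeR called 2.89% higher and 0.872% lower, and DESeq2 6.15% and 1.88%. Nid1, a nidogen that binds the gamma chain of laminin and links it to type IV collagen, was at 94.4 ± 12.5 against 24.9 ± 5.87 CPM (SD, n = 3), a log2 fold change of 1.92 (adjusted p = 0.00984 from edgeR), and Nid2, its relative, had 1.42 (0.0253). The type IV collagen chains Col4a1 and Col4a2, which form the second network of the basement membrane, had 1.02 (0.0481) and 1.32 (0.0267). Pxdn, the peroxidase that crosslinks that network, had 2.12, at 55.3 ± 8.68 against 12.7 ± 2.54 CPM (adjusted p = 0.00677 from edgeR). The proteoglycan Hspg2 (perlecan) had 1.29 (0.0269) and Col15a1 2.06 (0.0253). Col4a4, a type IV chain of kidney and other specialized membranes, was lower in every footpad tumor, at 3.02 ± 0.192 against 10.2 ± 0.990 CPM (log2 fold change -1.75, adjusted p = 0.0139 from edgeR). Smoc2 and Fbln2 had the largest log2 fold changes of the list, 3.29 and 3.18, which did not pass in edgeR (adjusted p = 0.0739 and 0.0581) and passed in DESeq2 (0.0176 and 0.00936). Without flank replicate 2 they were 4.81 and 4.57 and passed in edgeR (0.0301 and 0.0119). Without footpad replicate 3 none of the list was called, and without footpad replicate 1 or flank replicate 3 the number called higher was 1. Over all genes those fits called 0, 26 and 36 higher, in place of 497.

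No receptor of laminin was called in edgeR. Of 11 listed genes 0 passed in edgeR in either direction. In edgeR 4 had an unadjusted p under 0.05 and a higher level in footpad tumors, where 14.8% of all genes did. For 5 receptors all footpad tumors lay above all flank skin tumors, an order seen in 17.5% of genes tested. DESeq2 called 2 higher (Itga3 and Itga7), where it called 6.15% of genes with an adjusted p. The median log2 fold change of the list was 0.45. Itga7, the integrin subunit of muscle cells, had the largest value, 1.33 (with a standard error of 0.43, adjusted p = 0.112 by edgeR), and was at 5.95, 14.7 and 7.82 CPM in footpad tumors and at 3.88, 5.22 and 2.27 CPM in flank skin tumors. Without footpad replicate 2, its highest tumor, the value was 0.86. Itga3, an integrin subunit of epithelial cells, had 1.27 (0.0927 by edgeR and 0.0103 by DESeq2, which gave Itga7 0.0130). Itga6, the laminin receptor subunit most like Lamc1 in its pattern, was at 173, 190.5 and 179 CPM in footpad tumors and at 76.2, 129 and 141 CPM in flank skin tumors, with a log2 fold change of 0.65 (adjusted p = 0.133 from edgeR). Flank replicate 1 was lowest for Itga6 as it was for Lamc1 and Lamb1.

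Of the 13 enzymes that build the laminin-binding glycan of dystroglycan, 0 were called in edgeR or DESeq2, and the median log2 fold change was -0.02. At an unadjusted p under 0.05 in edgeR, 2 were lower in footpad tumors and 0 higher, where 10.5% of all genes tested were lower and 14.8% higher. Large2, which extends that glycan, had -1.61 (adjusted p = 0.132 from edgeR) and Pomt1, which starts it, had -0.44 (0.163). Netrins, guidance proteins that share laminin-like domains, were tested for 4 of 6 genes, and Ntn1 was called higher, at 3.06 ± 0.415 against 0.550 ± 0.331 CPM (log2 fold change 2.47, adjusted p = 0.0352 from edgeR), while Ntn4, which binds laminin and disturbs its assembly, had 1.95 (0.0596 from edgeR and 0.00499 from DESeq2). Over all genes tested, edgeR called 2.89% higher. Ntn1 was not called without footpad replicate 1 (adjusted p = 0.112), footpad replicate 3 (0.136), flank replicate 1 (0.0624) or flank replicate 3 (0.128). Over all genes those fits called 26, 0, 231 and 36 higher, in place of 497.

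Of 8 proteases that cut laminins, 1 was called higher in edgeR and 3 in DESeq2, where the shares over all genes were 2.89% and 6.15%. Bmp1, the metalloprotease that processes procollagens and laminin chains, was at 56.3, 64.7 and 71.5 CPM in footpad tumors and at 28.8, 32.7 and 24.9 CPM in flank skin tumors, with no overlap (log2 fold change 1.16 with a standard error of 0.16, adjusted p = 0.0154 by edgeR). Its adjusted p was 0.0611 without footpad replicate 1, 0.0879 without footpad replicate 3 and 0.0703 without flank replicate 3. Over all genes those fits called 26, 0 and 36 higher, in place of 497. The gelatinases Mmp9 and Mmp2 had log2 fold changes of 3.86 and 1.65, which did not pass in edgeR (adjusted p = 0.112 and 0.0994) and passed in DESeq2 (0.0377 and 0.00211). Mmp9 was uneven, at 31.1, 0.583 and 12.3 CPM in footpad tumors and at 0.448, 2.02 and 0.543 CPM in flank skin tumors, so that footpad replicate 2 was within the flank skin range. Without footpad replicate 2 its log2 fold change was 4.43 (adjusted p = 0.0277 by edgeR), and leaving out footpad replicate 1 gave 2.68. Mmp2 passed in edgeR without flank replicate 2 (0.0476).

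**Figure D5:**
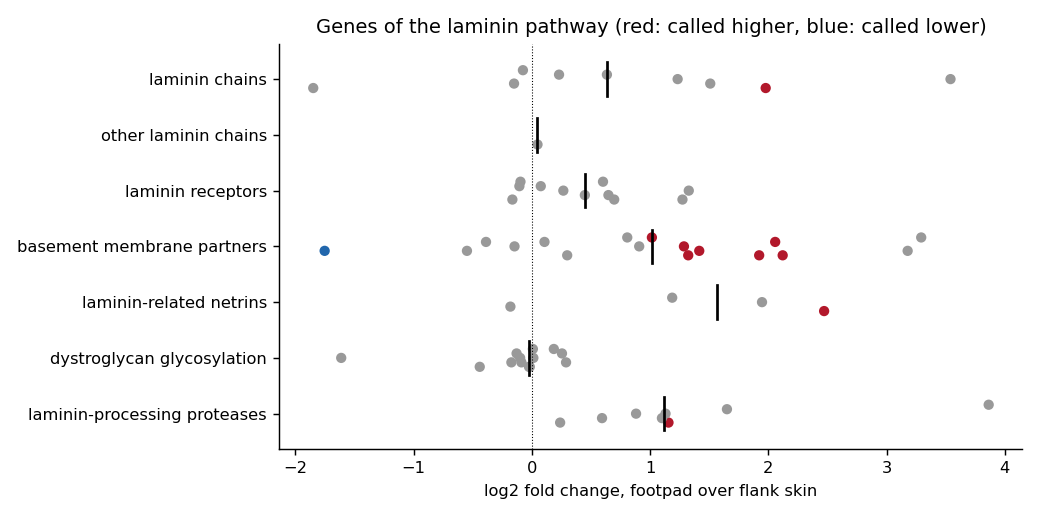
Each point is the log2 fold change of a tested gene, footpad over flank skin, for the 9 laminin chains, Lamc3 (in the row of other laminin chains) and the lists around them, with genes called higher in red, called lower in blue and a bar at the median of each list. The basement membrane partners have a median of 1.02 with 7 genes called higher and 1 lower by edgeR, and the receptors have one of 0.45 with none called by edgeR.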

How the data were processed

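Total RNA of 6 tumors was sequenced from stranded libraries. The authors checked the reads with FastQC 0.11.7, trimmed them with Trimmomatic and aligned them to mm10 with HISAT2 2.1.0, per the submitters' processing notes and the paper. The deposited values are whole read counts per gene, not normalized, and FPKM, in which the authors divided by transcript length and library size. The program that counted reads is not given in the sources used here. Coordinates are those of RefSeq on GRCm38, in which 45679 of 45777 gene identifiers were found.

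The fits used edgeR 4.0.16 in R 4.3.3 (TMM, filterByExpr, glmQLFit, glmQLFTest), which left 17210 genes with a common coefficient of variation of 0.338. Standard errors were taken from the log2 fold change and the F statistic. The 95% intervals use them and cover the spread between tumors. Other settings were DESeq2 1.42.0, limma 3.58.1 on log2(FPKM + 1) and log2(FPKM + 0.1), other scalings and filters, a replicate block and leaving out each tumor. The fits were tested on simulated data. The laminin chains and all lists were chosen with earlier results of these data known. All 9 chains were named. From the other lists, genes with an adjusted p under 0.05 and the 2 largest fold changes were named, for cell markers by example only. Tyr, Krt5 and Krt14 were chosen after their values were seen. Likeness was the root-mean-square difference of centered log2 CPM (prior count 1), for which the nearest 5 genes were named. 1 gene of the lists is not reported here. Figures were made with matplotlib 3.10.9.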

Additional observations from a re-analysis of the deposited data

How the results depend on the processing

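Of 365 values recomputed under another setting, 320 kept their direction and side of the threshold (counts within 1.5 times), 4 lost and 2 gained a call, 33 counts moved further and 6 values changed sign. The 320 include list counts of 0 that stayed at 0 and chains that were called in neither setting. DESeq2 called 2 laminin chains higher in place of 1, 2 receptors in place of 0, 2 netrins in place of 1 and 3 proteases in place of 1, and over all genes 1201 higher and 366 lower in place of 497 and 150. With limma on log2(FPKM + 1), 0 netrins and 0 basement membrane partners in the lower direction were called, each 1 before, and over all genes 271 higher and 95 lower. With a pseudocount of 0.1, and with a filter of 10 counts in every tumor, 2 netrins were called. Among the chains that filter left no value for Lamb3, and in the other lists it left none for Smoc2 and Large2, among others. With a replicate block 0 genes were called, so 0 laminin chains (Lamb1 2.01, adjusted p = 0.0778 from edgeR), 0 basement membrane partners, 0 netrins and 0 proteases. Deviations of same-numbered tumors from their group means had correlations of 0.054, -0.097 and -0.115, and pairs with different numbers had -0.199 to 0.264. The numbers were not taken to pair the tumors. These values cannot show whether tumors shared a host, because tumors of a shared host need not deviate together. Leaving out 1 tumor gave 0 to 2 laminin chains called higher, 0 to 8 basement membrane partners higher and 0 to 1 lower, 0 to 1 netrins and 0 to 2 proteases. Over all genes 0 to 639 were higher and 0 to 197 lower. Signs changed for Lama5 (from -0.07 to 0.27 without footpad replicate 2 and 0.15 without flank replicate 1, in a range from -0.48 to 0.27 without single tumors) and Lamc3 (from 0.04 to -0.021 with limma on log2(FPKM + 0.1), -0.13 with the block, -0.66 without footpad replicate 2 and -0.11 without flank replicate 3, in a range from -0.66 to 0.32). The cause was not tested. Among the 9 chains and Lamc3, reads were fewest for Lamb3, with 0 in 2 libraries, Lama1, with 13 in its lowest library, and Lamc3, with 22. Their values carry the most counting error of the chains. Genes of the other lists had few reads as well, such as Large2, with 6 in its lowest library, Smoc2 (9), Ntn4 (15) and Ntn1 (17).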
